A study of Mus musculus with 2 samples.

Results

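Genes of the ATF4 stress response and of amino acid supply were followed in embryonic growth plate cartilage of wild-type mice. They were picked by name, as 43 genes for kinases and phosphatase subunits acting on eIF2α, for ATF4 and its partner transcription factors, for effectors of the stress response, and for enzymes and transporters that supply amino acids. Of these, 41 had at least 1 probe set carrying that single gene symbol, among 18193 genes named on the array, and they were read by 96 probe sets. Eif2s1, which encodes eIF2α itself, and Pycr1, which encodes the enzyme of the last step of proline synthesis, had no such probe set and no value. RNA of C57BL/6J embryos at E17.5 was compared between cartilage enriched in columnar and hypertrophic chondrocytes, called columnar/hypertrophic below, and cartilage enriched in round chondrocytes, called round. The 2 groups had the same genotype, strain and stage, and the labels give no treatment. Each was a mixture of RNA from 3 cartilage portions on 1 Affymetrix array, so columnar cells were not measured apart from hypertrophic ones, the spread between portions or animals was not measured, and no value below has a replicate error or a test. With so few arrays the precision of each comparison is limited.

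When amino acids run short, or when proteins fail to fold in the endoplasmic reticulum, kinases phosphorylate eIF2α and most protein synthesis slows. Translation of the ATF4 messenger RNA is favoured under these conditions, through short reading frames upstream of its coding sequence, so that an mRNA level of Atf4 does not report the amount of the protein. ATF4 pairs with C/EBP and other leucine zipper proteins and activates genes for amino acid synthesis and uptake, for folate metabolism and for stress effectors such as CHOP. In the skeleton ATF4 is known from chondrocytes and osteoblasts, which secrete large amounts of collagen, and the growth plate passes from round cells through columns of flattened cells to hypertrophic cells.

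Most of these genes had higher signals on the columnar/hypertrophic array. Among the 40 with a signal above the floor on at least 1 array, 12 were at least 2-fold higher there (30%), against a background of 4.31% of the 11703 named genes above that floor. None, 0 of 40, was at least 2-fold lower, against a background of 6.37%. The list was chosen with earlier results of these data known, so its distance from the background is no independent result. Asns, Psat1, Psph, Mthfd2, Slc7a5 and Chac1, which encode the asparagine and serine synthesis enzymes, a mitochondrial folate enzyme, a transporter of large neutral amino acids and a glutathione-degrading enzyme, were at least 2.5-fold higher, as was Sesn2 by 1 of its probe sets. The kinases and phosphatase subunits that set eIF2α phosphorylation were within 2-fold.

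A signal is the deposited intensity of a probe set on a linear scale. The floor, 100.5, was the 95th percentile of 87 probe sets of chemosensory receptor genes, which cartilage is not known to use. Each gene was read from its brightest probe set, and its difference was taken on the log2 scale, columnar/hypertrophic minus round, so that 1 stands for 2-fold. Signals under the floor were set to it, which makes a difference with 1 such signal a bound. The members' differences ran between -0.97 and 2.16, and 38 of the 40 were above the floor on both arrays. The median member difference was 0.57, against -0.05 over all 11703 genes, and for genes above the floor on both arrays it was 0.63, against -0.03. Differences were above 0 for 32 of 40 members (80%), against 45.1% of all genes, and 27 of 40 lay at or above 0.28, the 75th percentile of all genes. With the arrays set to equal medians 18 members were at least 2-fold higher and 0 lower, while all genes at 2-fold then split into 943 higher and 413 lower, in place of 504 higher and 745 lower. In such bulk samples fewer cells of a type and less RNA per cell cannot be told apart.

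**Figure D1:**
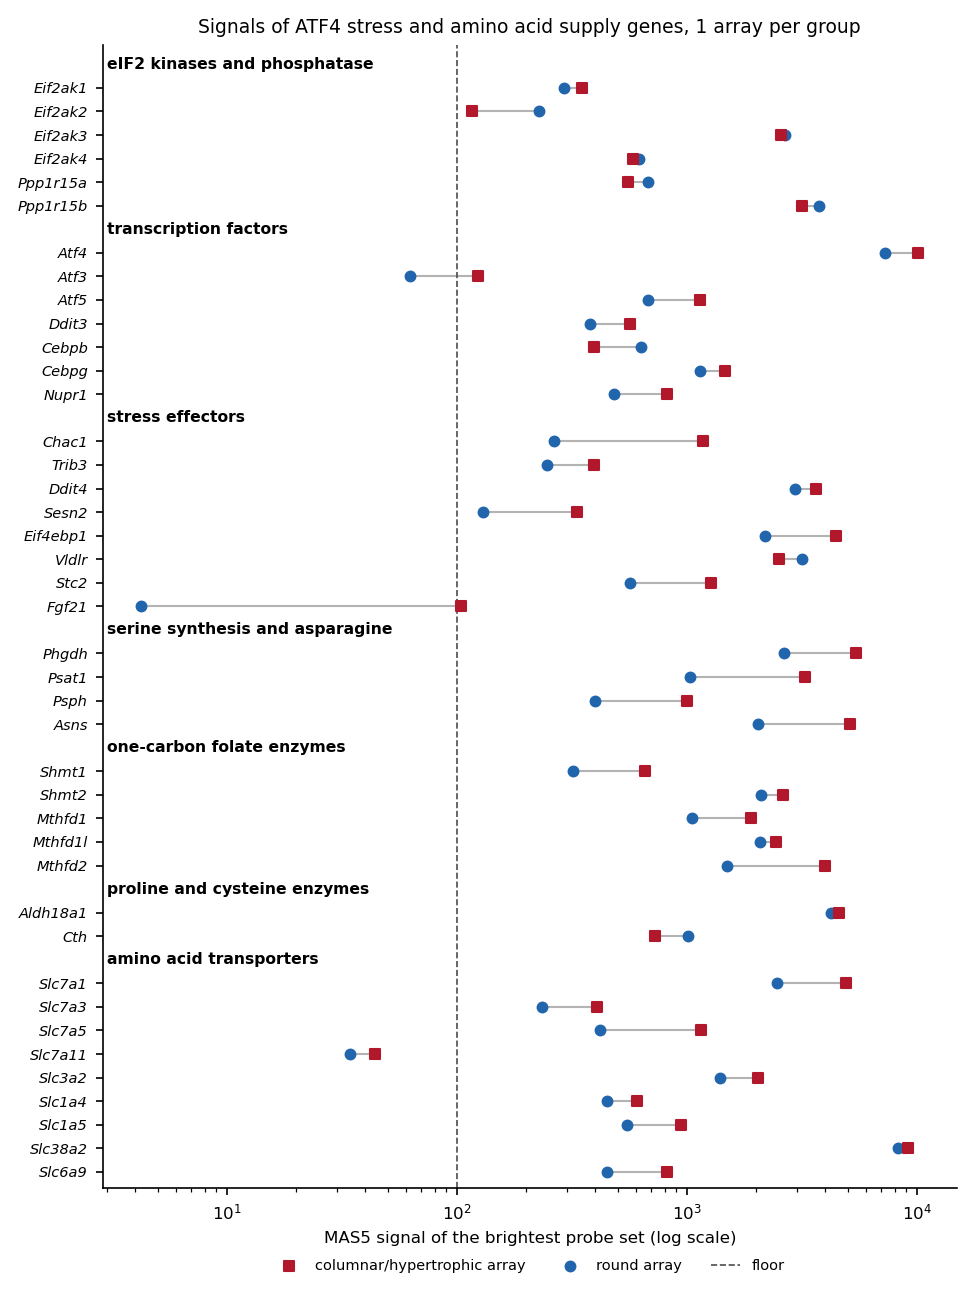
MAS5 signals (horizontal, log scale) of the 41 genes with a probe set, read from the brightest probe set of each, on the columnar/hypertrophic array (squares) and the round array (circles), grouped by role. The dashed line marks the floor, 100.5. The 4 serine and asparagine synthesis genes and the 8 transporters above the floor have the square to the right of the circle, while 5 of 6 eIF2 kinase and phosphatase genes have it to the left (2 of 6 with equal medians).

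**Figure D2:**
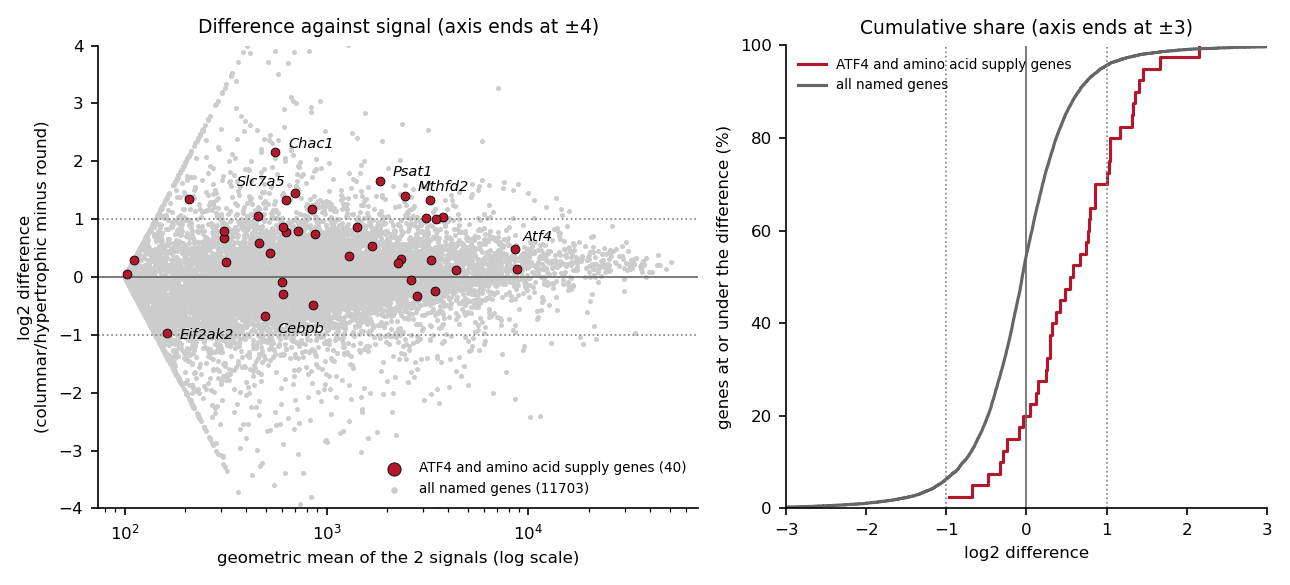
Left, log2 difference (columnar/hypertrophic minus round) against the geometric mean of the 2 signals (log scale) for 40 members (red) and all 11703 named genes above the floor on at least 1 array (grey). Right, the cumulative share of genes at or under each difference, in which the members' line lies to the right of that of all genes, with medians of 0.57 and -0.05.

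The labels of the arrays were set against marker genes. Of 8 measured prehypertrophic and hypertrophic markers, 7 were at least 2-fold higher, with summed signals of 42409 on the columnar/hypertrophic array and 3016 on the round array, although Mmp13, the collagenase gene of terminal cells, did not reach the floor on either. Round and resting chondrocyte markers were at least 2-fold lower for 8 of 9, with summed signals of 2803 on the columnar/hypertrophic array and 31855 on the round array. Chondrocyte markers such as Col2a1 and Acan were within 2-fold for 8 of 8 genes. Perichondrium, fibroblast and tendon markers were at least 2-fold lower for 5 of 9, with summed signals of 51839 on the columnar/hypertrophic array and 105370 on the round array, and Scx and Dpt were under the floor on both. The osteoblast marker Sp7, which hypertrophic cells also express, had signals of 1939.6 on the columnar/hypertrophic array and 170.3 on the round array. Ibsp, counted like Sp7 among both the osteoblast and the hypertrophic markers, had 123.7 on the columnar/hypertrophic array and 0.94 on the round array, under the floor. Dmp1 and Phex were under the floor on both. The summed signals of 6 osteoclast and macrophage markers were 902 in columnar/hypertrophic and 1427 in round cartilage, with Acp5 and Mmp9 under the floor, and those of 5 muscle markers were 153 in columnar/hypertrophic and 502 in round cartilage. The 5 endothelial and 3 blood markers on the array were under the floor on both. The 4 proliferation markers had a median difference of 0.06. The hypertrophic, round and perichondrial markers differed between the same 2 arrays as the members, and their part in the members' differences was not tested.

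ATF4 with a C/EBP partner binds a composite site, the C/EBP-ATF response element, searched here as TGATGNAAN on both strands of the stretch between 250 bases before and 50 bases after each annotated start (RefSeq, GRCm38.p6). A promoter was found for 37 of the 43 members, and not for Cth, Eif4ebp1, Ppp1r15b, Slc1a5, Slc7a3 and Slc7a5. The motif was in a promoter of 10 of the 37 (27.0%), against 1215 of 27025 genes (4.50%) and 3.95% of 32851 windows of this length. It was in 2 of the 10 members that were at least 2-fold higher and had a promoter, Chac1 and Asns, and in 7 of 25 other members on the array. The members were picked as genes of the ATF4 pathway, so a high share of the motif among all of them is no independent result. The palindrome TGACGTCA, a cAMP response element, was in 1 of 37 (2.70%), the promoter of Ppp1r15a, against 2.03% of all genes, and no member held both motifs. A match is a description of the letters and not a bound site. The 11 sites are shown because the members that hold them differ widely on the arrays. Each is written with 10 bases on either side, on the strand on which the motif reads forwards, with the motif in capitals, followed by the distance between the start and the end of the motif that lies farther upstream in the gene.
Chac1: ctggcaggagTGATGCAACggcagggaag (chr2:119351038-119351066, minus strand, at -194)
Asns: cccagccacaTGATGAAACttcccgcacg (chr6:7693214-7693242, minus strand, at -23)
Nupr1: aagccctgtcTGATGCAATctggcccttt (chr7:126625563-126625591, plus strand, at -111)
Trib3: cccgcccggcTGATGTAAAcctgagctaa (chr2:152344029-152344057, plus strand, at 14)
Slc1a4: aggctggagaTGATGCAACgcaggaggca (chr11:20332700-20332728, plus strand, at -5)
Atf3: gcggacttggTGATGCAAGtgcgagaagg (chr1:191183426-191183454, plus strand, at -111)
Fgf21: cctggacggaTGATGCAATgggggggtct (chr7:45615612-45615640, plus strand, at -140)
Slc7a11: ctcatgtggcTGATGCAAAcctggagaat (chr3:50443661-50443689, minus strand, at -66)
Slc7a11: ggctgcatgaTGATGCAAAttctccaggt (chr3:50443643-50443671, plus strand, at -48)
Vldlr: ctaggagcgcTGATGCAACtattgctgct (chr19:27216809-27216837, minus strand, at -201)
Pycr1: gccctgtgtaTGATGCAATgcacaaggct (chr11:120643833-120643861, minus strand, at -103)

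The commonest spellings were TGATGCAAC and TGATGCAAT, with 3 sites each, and Asns alone held TGATGAAAC. Slc7a11 held 2 sites on opposite strands, and its signal was under the floor on both arrays.

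**Figure D3:**
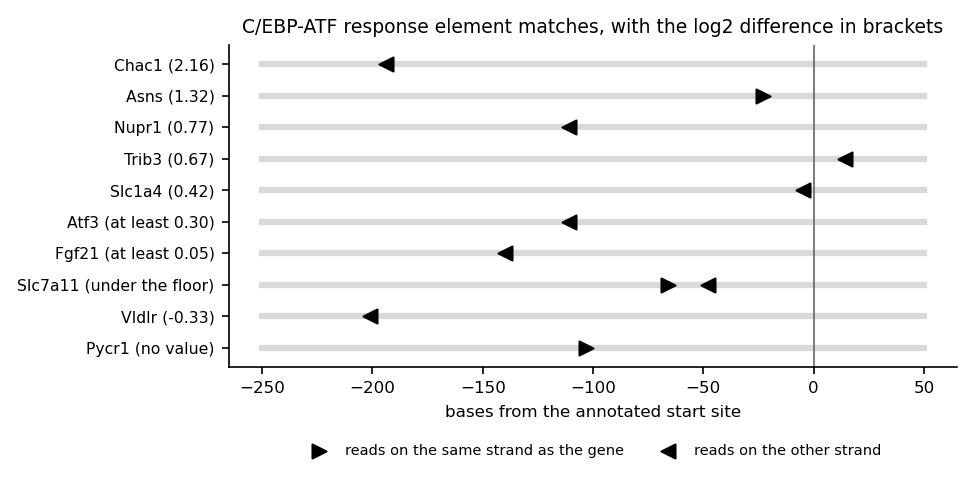
Positions of the C/EBP-ATF response element TGATGNAAN (triangles, pointing along the strand on which it reads) in the promoters of the 10 members that hold it, in bases from the annotated start (horizontal), with the log2 difference (columnar/hypertrophic minus round) in brackets. The sites lie between -201 and 14, and the differences of the genes with a measured value run between -0.33 for Vldlr and 2.16 for Chac1.

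For the 2 genes that were at least 2-fold higher and held the motif, the 250 bases before the start are given on the gene's strand, where the Chac1 site appears as its reverse complement. Chac1 lies at chr2:119350992-119351241 on the plus strand and Asns at chr6:7693210-7693459 on the minus strand.
Chac1: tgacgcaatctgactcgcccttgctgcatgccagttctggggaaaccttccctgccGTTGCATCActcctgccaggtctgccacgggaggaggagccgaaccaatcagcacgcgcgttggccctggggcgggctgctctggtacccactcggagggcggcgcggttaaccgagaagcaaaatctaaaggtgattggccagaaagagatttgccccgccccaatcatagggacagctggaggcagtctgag
Asns: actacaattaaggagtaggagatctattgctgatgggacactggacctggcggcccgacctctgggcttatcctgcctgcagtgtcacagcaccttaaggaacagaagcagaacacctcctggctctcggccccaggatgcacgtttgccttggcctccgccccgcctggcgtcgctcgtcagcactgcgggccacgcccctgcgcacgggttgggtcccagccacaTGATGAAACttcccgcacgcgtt

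The kinases and phosphatase subunits upstream of ATF4 were within 2-fold. Of the 6 measured, 0 were at least 2-fold different and 1 lay above 0 (4 with equal medians), with a median of -0.17 (0.11 with equal medians). Eif2ak3, which encodes PERK, the kinase of the endoplasmic reticulum membrane, had signals of 2576 on the columnar/hypertrophic array and 2664 on the round array, a difference of -0.05, and its other 2 probe sets were under the floor (5.76 in columnar/hypertrophic and 17.6 in round cartilage, and 65.7 in columnar/hypertrophic and 35.3 in round cartilage). Eif2ak4, encoding GCN2, which senses uncharged tRNA, had 582 in columnar/hypertrophic and 621 in round cartilage (-0.09) and 127 in columnar/hypertrophic and 165 in round cartilage by its dimmer probe set (-0.37). By its brightest probe set, each of these kinase genes thus had nearly the same signal on both arrays. Eif2ak1, encoding the heme-regulated kinase HRI, had 349.6 on the columnar/hypertrophic array and 292 on the round array (0.26) and 202 in columnar/hypertrophic and 157 in round cartilage by a second probe set (0.36). Another probe set of Eif2ak1 had 82.6 in columnar/hypertrophic and 169 in round cartilage, a bound of -0.75, and its other 2 were under the floor on both (97.6 in columnar/hypertrophic and 98.4 in round cartilage, and 5.09 in columnar/hypertrophic and 8.63 in round cartilage). Eif2ak2, encoding PKR, the kinase that binds viral RNA, had 116 on the columnar/hypertrophic array and 227 on the round array, the lowest difference of any member (-0.97), but 146 in columnar/hypertrophic and 123 in round cartilage by another probe set (0.25). Its remaining probe set was under the floor at 50.5 in columnar/hypertrophic and 73.0 in round cartilage. The direction for PKR therefore depended on the probe set, near the floor in each case.

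Both regulatory subunits of the phosphatase that reverses the phosphorylation were lower on the columnar/hypertrophic array by small amounts, which vanished with equal medians (-0.02 for Ppp1r15a and 0.03 for Ppp1r15b). Ppp1r15a, encoding the stress-induced GADD34, had 552 on the columnar/hypertrophic array and 678 on the round array (-0.30). Ppp1r15b, encoding the constitutive CReP, had 3156 in columnar/hypertrophic and 3742 in round cartilage (-0.25), with its other probe set under the floor at 46.0 in columnar/hypertrophic and 52.4 in round cartilage. Equal medians put the median of all genes at 0.22, so the median of these 6 genes, 0.11, remained under it. The sign of differences this small thus depends on the scaling.

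The wider eIF2 machinery was mostly within 2-fold. Of 16 further genes for eIF2 and eIF2B subunits, phosphatase catalytic subunits and related regulators, 1 was at least 2-fold higher and 0 lower, 8 lay above 0, and the median was 0.01. The background was 4.31% of all named genes at least 2-fold higher and 6.37% lower. With equal medians 14 of the list lay above 0, 3 were at least 2-fold higher and the median was 0.29, so the direction of this list depends on the scaling. The gene at 2-fold was Eif2b3, a subunit of the exchange factor that recharges eIF2 with GTP, with 683 on the columnar/hypertrophic array and 340.1 on the round array (1.01). Among the genes within 2-fold, chosen here after their values were seen because eIF2α had no probe set, the β and γ subunit genes of eIF2, Eif2s2 and Eif2s3x, differed by 0.90 and 0.60.

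Among the 7 transcription factor genes, 6 lay above 0 and 0 passed 2-fold, with a median of 0.48, although Atf5 and Nupr1 passed it with equal medians, and Cebpg and Nupr1 by the second brightest probe set. Atf4 had signals of 10121 on the columnar/hypertrophic array and 7239.5 on the round array (0.48, 1.40-fold), the brightest of its 3 probe sets. A second probe set had 4262 in columnar/hypertrophic and 3685 in round cartilage (0.21), and the third was under the floor at 8.04 in columnar/hypertrophic and 4.37 in round cartilage. Both readable probe sets put Atf4 higher on the columnar/hypertrophic array, by less than 2-fold. Ddit3, encoding CHOP, the factor linked to cell death in prolonged stress, had 567 on the columnar/hypertrophic array and 378 on the round array (0.59), but 169 in columnar/hypertrophic and 156 in round cartilage by its other probe set (0.11). Atf5, a close relative of ATF4, had 1141.5 in columnar/hypertrophic and 679.9 in round cartilage by its 1 probe set (0.75). Atf3, a repressor and activator induced by many stresses, had 123 on the columnar/hypertrophic array and 62.7 on the round array, under the floor, for a difference of at least 0.30. Atf4, Atf5 and Atf3 thus lay on the same side of 0, with Atf3 barely above the floor.

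The C/EBP partners of ATF4 lay on opposite sides of 0. Cebpb, encoding C/EBPβ, had 393 on the columnar/hypertrophic array and 628 on the round array (-0.68), and its second probe set gave -0.74. Cebpg, encoding C/EBPγ, a C/EBP protein that forms heterodimers with ATF4, had 1467 in columnar/hypertrophic and 1141 in round cartilage (0.36), while 2 dimmer probe sets gave 1.63 and a bound of 0.68. Cebpb was 1 of 2 members whose several probe sets all lay under 0, the other being Eif2ak4. Nupr1, encoding a small chromatin protein of the stress response, had 821 on the columnar/hypertrophic array and 481 on the round array (0.77) and gave 1.32 by a second probe set. Nupr1 was at least 2-fold higher when its probe sets were averaged.

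The stress effector genes held both the largest difference and some of the least certain ones. Of 8 measured, 4 were at least 2-fold higher and 7 lay above 0, with a median of 0.85. This rested on the brightest probe sets, since 1 of 8 was at least 2-fold higher both when probe sets were averaged (median 0.32) and by the second brightest (median 0.04). Chac1, encoding an enzyme that breaks down glutathione, had 1179 on the columnar/hypertrophic array and 264 on the round array, 4.46-fold higher and the largest difference of the 40 members (2.16). It was read by 1 probe set, so no second reading of the gene was at hand, and its promoter with the motif is given above. Stc2, encoding the secreted glycoprotein stanniocalcin 2, had 1274 on the columnar/hypertrophic array and 567 on the round array, 2.25-fold higher (1.17). Its other probe sets had 640.3 in columnar/hypertrophic and 220.2 in round cartilage (1.54), and 424 in columnar/hypertrophic and 423 in round cartilage (0.00). Of the 3 readings of Stc2, 2 were thus more than 2-fold apart and 1 was equal.

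Several effectors restrain growth through mTORC1 or through translation. Sesn2, encoding sestrin 2, a leucine sensor that inhibits mTORC1, had 332 on the columnar/hypertrophic array and 130.4 on the round array, 2.55-fold higher (1.35), but 123 in columnar/hypertrophic and 199 in round cartilage by its other probe set (-0.69). Eif4ebp1, encoding the translation repressor 4E-BP1, had 4433 in columnar/hypertrophic and 2179 in round cartilage, 2.03-fold higher (1.02), then 2945 in columnar/hypertrophic and 1819 in round cartilage (0.69), and 252 in columnar/hypertrophic and 249.85 in round cartilage (0.01), by its other probe sets. Ddit4, encoding the mTORC1 inhibitor REDD1, had 3642 on the columnar/hypertrophic array and 2962 on the round array (0.30). For Sesn2 the probe sets did not settle a direction, while those of Eif4ebp1 ran between nearly equal signals (0.01) and 1.02. Trib3, encoding a pseudokinase induced by ATF4 that feeds back on it, had 393 in columnar/hypertrophic and 247 in round cartilage (0.67) and 211 in columnar/hypertrophic and 220.2 in round cartilage by its other probe set (-0.06).

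Vldlr, encoding a lipoprotein receptor, was the single effector gene under 0 by its brightest probe set. It had 2505 on the columnar/hypertrophic array and 3157.5 on the round array (-0.33). Of its 5 other probe sets, those with 491 in columnar/hypertrophic and 634 in round cartilage, and with 284 in columnar/hypertrophic and 357 in round cartilage, gave -0.37 and -0.33. Those with 1169 in columnar/hypertrophic and 1145 in round cartilage, and with 300.1 in columnar/hypertrophic and 242 in round cartilage, gave 0.03 and 0.31, and the last one, with 134.6 in columnar/hypertrophic and 82.4 in round cartilage, gave a bound of 0.42. Fgf21, encoding a hormone secreted mainly by liver under metabolic stress, had 104 on the columnar/hypertrophic array, barely above the floor, and 4.25 on the round array, a bound of 0.05. For Vldlr the probe sets did not settle a direction, and Fgf21 was readable on 1 array alone.

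Serine and asparagine synthesis was the group in which all genes passed 2-fold, 4 of 4 with a median of 1.33 (3 of 4 after quantile normalization, after lowess centring, with Phgdh at 0.95, or with probe sets averaged). Phgdh, Psat1 and Psph encode the successive enzymes that make serine from a glycolytic intermediate. Phgdh had 5440.5 on the columnar/hypertrophic array and 2640.1 on the round array, 2.06-fold higher (1.04). Its 3 other probe sets had 5259 in columnar/hypertrophic and 2554 in round cartilage (1.04), 2566 in columnar/hypertrophic and 1234 in round cartilage (1.06), and 1558 in columnar/hypertrophic and 1030.5 in round cartilage (0.60). The 4 Phgdh probe sets are all of the kind that may cross-hybridise, and 2 further ones, which name Phgdh together with another gene, were left out. The brightest probe sets of Eif4ebp1, Trib3, Vldlr, Shmt2 and Aldh18a1 are of this kind too. Psat1, the transaminase, had 3265 on the columnar/hypertrophic array and 1029 on the round array, 3.17-fold higher (1.67), and 1405 in columnar/hypertrophic and 462 in round cartilage by its other probe set (1.60). Psph, the phosphatase of the last step, had 1001 in columnar/hypertrophic and 398 in round cartilage, 2.52-fold higher (1.33), by its 1 probe set. The 3 enzymes of the pathway were thus higher by every one of the 7 probe sets that name one of them alone.

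Asns encodes asparagine synthetase, a classical target of ATF4 whose promoter site is given above. It had 5119 on the columnar/hypertrophic array and 2045 on the round array, 2.5035-fold higher (1.32), and 3521 in columnar/hypertrophic and 1243 in round cartilage by its second probe set (1.502). The difference of each Asns probe set was larger than the SD of 0.37 found between probe sets of a gene in 4825 genes with several measurable ones. That SD describes the array and not biological replicates, and over the 26 members with several such probe sets it was 0.46.

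The folate enzymes that pass on the one-carbon unit of serine lay above 0 for 5 of 5 genes, with a median of 0.86. Of them 2 were at least 2-fold higher, and between 1 and 3 under the alternatives. Mthfd2, the mitochondrial dehydrogenase and cyclohydrolase, had 3974 on the columnar/hypertrophic array and 1499.5 on the round array, 2.65-fold higher (1.41), and 2715 in columnar/hypertrophic and 1075 in round cartilage by its second probe set (1.34). Shmt1, which splits serine in the cytosol, had 659.7 in columnar/hypertrophic and 319 in round cartilage, 2.07-fold higher (1.05), and its dimmer probe sets had 407 in columnar/hypertrophic and 257 in round cartilage (0.66) and 391 in columnar/hypertrophic and 314 in round cartilage (0.32), with a last one under the floor at 84.8 in columnar/hypertrophic and 20.6 in round cartilage. Both genes were higher by all measurable probe sets, and Mthfd2 alone of them by 2-fold in each. Mthfd1, the cytosolic enzyme of several folate steps, had 1906 on the columnar/hypertrophic array and 1051.5 on the round array (0.86), and 1.0045 and 0.69 by its other probe sets. Shmt2, the mitochondrial counterpart of Shmt1, had 2616 in columnar/hypertrophic and 2102.5 in round cartilage (0.32), with 0.51, 0.90 and a bound of 1.33 by dimmer probe sets. Mthfd1l, which releases formate from mitochondria, had 2446 in columnar/hypertrophic and 2068 in round cartilage (0.24).

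The remaining enzyme genes, for proline and cysteine, did not share this pattern. Aldh18a1, whose product makes the precursor of proline, had 4574 on the columnar/hypertrophic array and 4229.5 on the round array (0.11). Its 4 other probe sets had 1609 in columnar/hypertrophic and 2119 in round cartilage (-0.40), 1005 in columnar/hypertrophic and 834 in round cartilage (0.27), 479.8 in columnar/hypertrophic and 523 in round cartilage (-0.12), and 116 in columnar/hypertrophic and 252 in round cartilage (-1.12). The last, the dimmest, was the single member probe set, of those measured on both arrays, that was at least 2-fold lower. Cth, encoding the enzyme that makes cysteine from cystathionine, had 727 on the columnar/hypertrophic array and 1016 on the round array (-0.48).

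Amino acid transporter genes lay above 0 for 8 of 8 measured (7 of 8 after quantile normalization or lowess centring, 6 of 8 by the second brightest probe set), with a median of 0.79 and a range between 0.14 and 1.46. Slc7a5, encoding LAT1, which carries leucine and other large neutral amino acids, had 1155 on the columnar/hypertrophic array and 420.3 on the round array, 2.75-fold higher (1.46), by its 1 probe set. Slc3a2, encoding the heavy chain with which LAT1 is paired, had 2038 in columnar/hypertrophic and 1398.5 in round cartilage (0.54). Slc7a1, encoding the arginine and lysine carrier CAT-1, had 4922 on the columnar/hypertrophic array and 2453 on the round array, 2.01-fold higher (1.004). Its second probe set had 3190.5 in columnar/hypertrophic and 1452 in round cartilage (1.14), and the third was under the floor at 76.7 in columnar/hypertrophic and 91.2 in round cartilage. LAT1 and CAT-1 were thus the carriers at 2-fold, CAT-1 just inside that size. With equal medians 5 of 8 were, adding Slc7a3, Slc1a5 and Slc6a9, and after quantile normalization or lowess centring 1 of 8 was, Slc7a5. Slc7a3, encoding the related CAT-3, was within 2-fold, with 408 on the columnar/hypertrophic array and 235 on the round array (0.80).

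Slc6a9, encoding the glycine transporter GlyT1, had 816 on the columnar/hypertrophic array and 451 on the round array (0.86), and 0.55 by its second probe set. Slc1a5, encoding ASCT2, which takes up glutamine, had 946 in columnar/hypertrophic and 548 in round cartilage (0.79), and 0.70 by its second probe set. These genes were higher by each of their probe sets, within 2-fold. Slc1a4, encoding the related ASCT1, had 604 in columnar/hypertrophic and 451 in round cartilage (0.42), then 351 in columnar/hypertrophic and 345 in round cartilage (0.02) and 424 in columnar/hypertrophic and 462 in round cartilage (-0.13). Slc38a2, encoding SNAT2, had 9169 on the columnar/hypertrophic array and 8311.5 on the round array (0.14, and -0.03 after lowess centring), 228 in columnar/hypertrophic and 211 in round cartilage (0.11), and 2528 in columnar/hypertrophic and 2885 in round cartilage (-0.19). Slc7a11, encoding the cystine importer xCT, was under the floor on both arrays, with 44.2 in columnar/hypertrophic and 34.4 in round cartilage, and 22.7 in columnar/hypertrophic and 0.831 in round cartilage, so no difference can be given for a gene whose promoter holds the motif at 2 places.

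Agreement between probe sets of a gene gave a technical reading of these differences. Of the 96 member probe sets, 79 were above the floor on both arrays, 6 gave a bound and 11 were under the floor on both. At least 2-fold higher were 22 of the 79, against a background of 4.02% of all such probe sets, and 1 was at least 2-fold lower, against 5.17%. In 19 of the 26 members with several of these 79 the differences had 1 sign, above 0 in 17 and under 0 in 2. The 7 members with both signs were Eif2ak2, Trib3, Sesn2, Vldlr, Aldh18a1, Slc1a4 and Slc38a2. Of the 12 members at least 2-fold higher, 9 had several such probe sets, all above 0 in 8 and all at least 2-fold in 4, which were Psat1, Asns, Mthfd2 and Slc7a1. Those 8 include Stc2 and Eif4ebp1, each with 1 probe set of nearly equal signals on both arrays (0.00 and 0.01). In size, 7 of the 12 were at least 2.5-fold higher, and 4 were under 2.1-fold, which were Slc7a1, Eif4ebp1, Phgdh and Shmt1, so the count rests in part on genes close to the threshold. Just outside it lay Mthfd1 and Slc6a9, at 1.81-fold each.

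**Figure D4:**
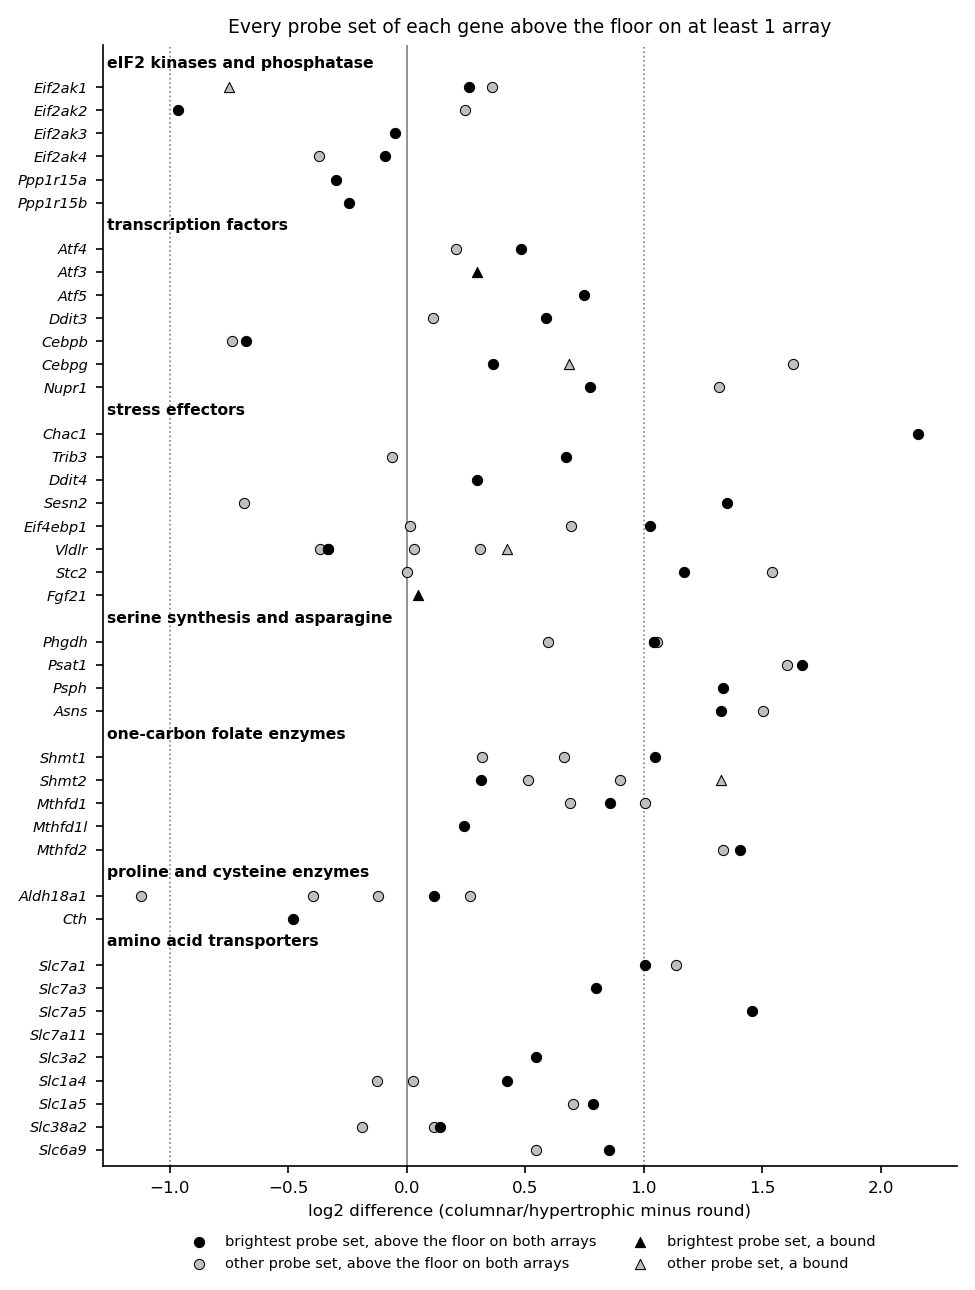
Log2 difference (columnar/hypertrophic minus round, horizontal) of each probe set above the floor on at least 1 array, by gene and role, with the brightest probe set in black, others in grey, and bounds as triangles. Probe sets of Psat1, Asns, Mthfd2 and Slc7a1 all lie to the right of the 2-fold line at 1. With bounds left out, the probe sets of 7 genes, among them Sesn2 and Aldh18a1, lie on both sides of 0. Eif2ak1 also lies on both sides of 0 when its bound of -0.75 is counted.

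Other genes of the same pathways were counted in the same way, against the background of 4.31% of named genes at least 2-fold higher and 6.37% lower. These lists, like the members, were chosen with earlier results of these data known. Of 23 other amino acid transporter genes above the floor, 3 were at least 2-fold higher and 1 lower, 12 lay above 0, and the median was 0.12. With equal medians 6 were at least 2-fold higher and 18 lay above 0. The higher ones were Slc38a10, with 8591 on the columnar/hypertrophic array and 3195 on the round array (1.43), Slc43a3 (1916 in columnar/hypertrophic and 797 in round cartilage, 1.27), and the mitochondrial serine carrier gene Sfxn1 (3557 in columnar/hypertrophic and 1698 in round cartilage, 1.07, and 1.32 by its second probe set). The glutamate carrier gene Slc1a3 was lower, with 177 on the columnar/hypertrophic array and 676 on the round array (-1.93). Against these, the 8 transporter genes among the members had a median of 0.79, a comparison of lists with no test.

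Of 31 other enzyme genes of serine, glycine, folate, proline, glutamine, aspartate and sulfur amino acid metabolism above the floor, 4 were at least 2-fold higher and 3 lower, 19 lay above 0, and the median was 0.25. Higher were Got1, a transaminase that makes aspartate, with 1505 on the columnar/hypertrophic array and 622 on the round array (1.28), Bcat1 for branched-chain amino acids (5773 in columnar/hypertrophic and 2853 in round cartilage, 1.02) and Ahcy of the methionine cycle (3618 in columnar/hypertrophic and 1791.5 in round cartilage, 1.01). Gclm, a subunit of the first enzyme of glutathione synthesis, had 467 in columnar/hypertrophic and 172 in round cartilage (1.44) but gave -0.13 by its other probe set. Lower were Aldh1l1, a cytosolic folate dehydrogenase, with 139.9 on the columnar/hypertrophic array and 395 on the round array (-1.498), Csad of taurine synthesis (503 in columnar/hypertrophic and 1108 in round cartilage, -1.14) and Tyms, thymidylate synthase (108 in columnar/hypertrophic and 228 in round cartilage, -1.07). The background was 4.31% of all named genes at least 2-fold higher and 6.37% lower. The enzyme genes at 2-fold thus went both ways in this list, while those among the members went one way. Both lists were chosen with earlier results of these data known, and the contrast was not tested.

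Of 22 other partners and reported targets of ATF4 and CHOP above the floor, 3 were at least 2-fold higher and 1 lower, 14 lay above 0, and the median was 0.25. The background was 4.31% of all named genes at least 2-fold higher and 6.37% lower. With the floor at the 99th percentile 1 of the list was at least 2-fold higher. Gpt2, a mitochondrial transaminase that links alanine and glutamate, had 1859.8 on the columnar/hypertrophic array and 774 on the round array (1.27), and its 3 other probe sets gave 1.14, 1.09 and 1.11. Nfil3, a leucine zipper repressor, had 282 in columnar/hypertrophic and 137 in round cartilage (1.04), and Ddit4l, a relative of Ddit4, had 207 in columnar/hypertrophic and 66.3 in round cartilage, a bound of 1.04. Trib2, a pseudokinase gene related to Trib3, was lower, with 945 on the columnar/hypertrophic array and 3821 on the round array (-2.01), and -2.04 by its second probe set.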

How the data were processed

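Total RNA was hybridised to 1 Affymetrix whole-genome mouse array per group, each a mixture of 3 portions. The deposited values are linear intensities of 45101 probe sets. MAS5 is named in the submitters' processing notes (its version is not given in the sources), whereas the study's methods name RMA for its arrays. After trimming 2% of probe sets at each end both arrays had a mean of 500, and median signals were 105 (columnar/hypertrophic) and 128 (round). Such scaling assumes comparable total signal, and MAS5 signals of dim genes are noisy. Gene names came from the annotation of the platform (34945 with 1 symbol, 932 with several, 9211 unnamed and 64 controls). Promoters came from the RefSeq table of GRCm38.p6. Values were computed with Python 3.11.15, numpy 2.4.6, pandas 2.3.3 and statsmodels 0.14.6 (lowess span 0.3), and the script was tested on simulated data.

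The members and lists were chosen with earlier results of these data known. By rule all members were named, with all probe sets for those at 2-fold, for Atf4, Ddit3 and the kinases, and for those with both signs, and other list genes where they passed 2-fold. Alternatives covered scaling, floor, probe set choice and a requirement of signal on both arrays. With 1 array per group no test was made.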

Additional observations from a re-analysis of the deposited data

How the results depend on the processing

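Under 10 alternatives the count of members at least 2-fold higher ran between 8 and 18, against 12, and the count at least 2-fold lower was 0 in each. Equal medians gave 18 and raised the median of all genes to 0.22, against -0.05 as deposited, with 943 genes higher and 413 lower in place of 504 and 745. Setting equal medians shifts all differences alike, apart from those with signals near the floor. The median of the members relative to that of all genes, 0.62 under both scalings, was therefore bound to stay nearly the same. Under the other alternatives it ran between 0.40 (second brightest probe set) and 0.77 (no floor). With the second brightest probe set the median member difference was 0.34, against 0.57, and Sesn2 was reversed at -0.69, against 1.35. Of 386 values of single members, 368 moved by less than the SD between probe sets, 17 moved by more and kept their direction or were not at 2-fold, and 1, Sesn2, was reversed. At 2-fold under every alternative with a value were 6 of the 12 (Asns, Chac1, Mthfd2, Psat1, Psph and Slc7a5). Eif4ebp1, Phgdh and Slc7a1 were not after quantile normalization or lowess centring, and Sesn2, Shmt1, Stc2 and Eif4ebp1 were not by the second brightest probe set. With probe sets averaged, Eif4ebp1, Phgdh, Sesn2, Shmt1 and Stc2 were not, which left 7 of the 12. Eif4ebp1 also fell under 2-fold without the _x_at, _s_at and _a_at probe sets. Chac1, Psph and Slc7a5 have 1 probe set each, so averaging or taking the second brightest probe set repeated their value. These settings could therefore not move them, and such repeated values are also among the 368. Psat1 and Phgdh each had a value under 9 of the 10 alternatives. Leaving out an array was not possible, because each group is 1 array. No paired analysis was possible because no result comes from a test. Signals near the floor limit Atf3, Fgf21, Eif2ak2, Sesn2 and Slc7a11. Sesn2 had 130.4 on the round array, and its difference became a bound of 1.19 with the floor at the 99th percentile (145.4).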

Other observations

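Genes for the cytosolic aminoacyl-tRNA synthetases, which charge tRNA with amino acids and several of which are known ATF4 targets, were listed after the members' values had been seen. Of 19 above the floor, 18 lay above 0 in the difference columnar/hypertrophic minus round, 2 were at least 2-fold higher and 0 lower, and the median was 0.50. Over all genes 45.1% lay above 0 and 4.31% were at least 2-fold higher. With equal medians 6 of the 19 passed 2-fold, and after quantile normalization or lowess centring 1 did. Aars, for alanine, had 1870.0 on the columnar/hypertrophic array and 813 on the round array (1.20, and 1.03 by its second probe set), and Gars, for glycine, had 6506 on the columnar/hypertrophic array and 3071 on the round array (1.08). Qars, for glutamine, was the single gene under 0, at -0.06.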
